A study of Homo sapiens with 18 samples.

Results

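The response of SKMEL30 melanoma cells to 18 h of PPP2R3B overexpression was measured by comparing the 3 induced libraries with the 3 untreated libraries of that line, which are 6 of the 18 RNA sequencing libraries in the study. Both groups came from a single stable derivative of SKMEL30, an established NRAS-mutant human melanoma line, made by lentiviral transduction with a doxycycline-inducible (tet-ON) pTRIPZ-PPP2R3B vector and selection in puromycin. Induced cells received doxycycline for 18 h and untreated cells received none. Doxycycline is a tetracycline antibiotic that is also known to inhibit mitochondrial protein synthesis, and no library here had the drug without the PPP2R3B vector, so the effects of the drug and of the transgene cannot be told apart. The same 3 untreated libraries are also the controls of a 6 h induction, and the SKMEL2 line was taken through the same 3 conditions. All 58051 genes of the expected count table were considered, of which 15026 passed a filter on low counts in the 9 SKMEL30 libraries and were tested. The labels number the replicates without saying whether they were separate cultures, so the p-values measure only the spread between these libraries, which may be technical.

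PPP2R3B encodes PR70, a B double prime regulatory subunit of protein phosphatase 2A (PP2A), the trimeric serine and threonine phosphatase whose regulatory subunits direct a shared scaffold and catalytic core to its substrates. PR70 is known to bring PP2A to CDC6, a loader of the replicative helicase onto replication origins. Melanoma cells are commonly described as moving between a proliferative, pigmented state and an invasive state. The gene lists below were drawn up around these states, the cell cycle, PP2A and the signalling routes of the line. Lists and members were chosen with earlier results of these data known, so calls within a list are not independent evidence for its pathway.

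Expected counts summed to between 16335231 and 18978064 in the untreated libraries and to between 15552537 and 19169085 at 18 h, and values are given below as CPM, counts scaled to library size, after TMM normalisation. The 10 melanocyte lineage markers, among them MITF, SOX10, PMEL and TYR, were all detected and summed to between 8898 and 9102 CPM untreated and to between 8696 and 8934 CPM at 18 h, without TMM scaling. Of the 5 blood markers 2 had no count in any of the 6 libraries, and the blood sum did not exceed 1.61 CPM. The endothelial sum was between 0.738 and 1.08 CPM untreated and between 1.16 and 2.16 CPM at 18 h, nearly all from VWF. The sum of the 7 fibroblast markers was between 27.4 and 27.8 CPM untreated and between 29.4 and 32.3 CPM at 18 h, mostly from LUM, and 5 of the 7 had under 10 counts in every library. Neither sum overlapped between the groups, and the part of such cells in the results was not tested. The 6 epithelial markers summed to between 98.2 and 101 CPM untreated and to between 119 and 132 CPM at 18 h, mostly through CDH1. The third library at 18 h stood apart in the keratins, with 118 counts of KRT5 and 76 of KRT14, against at most 6 and 13 in the other 5 libraries. Leaving that library out reduced the number of called genes from 44 to 27, and leaving out any other 1 of the 6 left between 25 and 30. All 27 were among the 44, and the part of the keratin-bearing material in the other calls was not tested.

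At 18 h 44 genes differed from untreated cells at an adjusted p under 0.05, which is 0.293% of the genes tested. Of these, 26 were higher (0.173%) and 18 were lower (0.12%). In each of the 44 the 3 libraries at 18 h lay entirely above or below the 3 untreated ones, as did 15.9% of all genes tested. The changes were mostly small. The log2 fold change was under 0.5 in size for 33 of the 44 genes, between 0.5 and 1 for 4, and 1 or more for 7, with a median size of 0.36. Across all genes tested the median log2 fold change was 0.00066, with 7555 genes above 0 and 7471 below. An exact permutation test of 3 libraries against 3 has only 20 splits and cannot go below p = 0.1, so the calls rest on the spread shared across genes in the fit. Of the 44 calls, 23 remained when any single library of either group was left out, and 21 did not. In bulk RNA a lower level from fewer cells of a kind and one from less RNA per cell cannot be told apart.

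**Figure D1:**
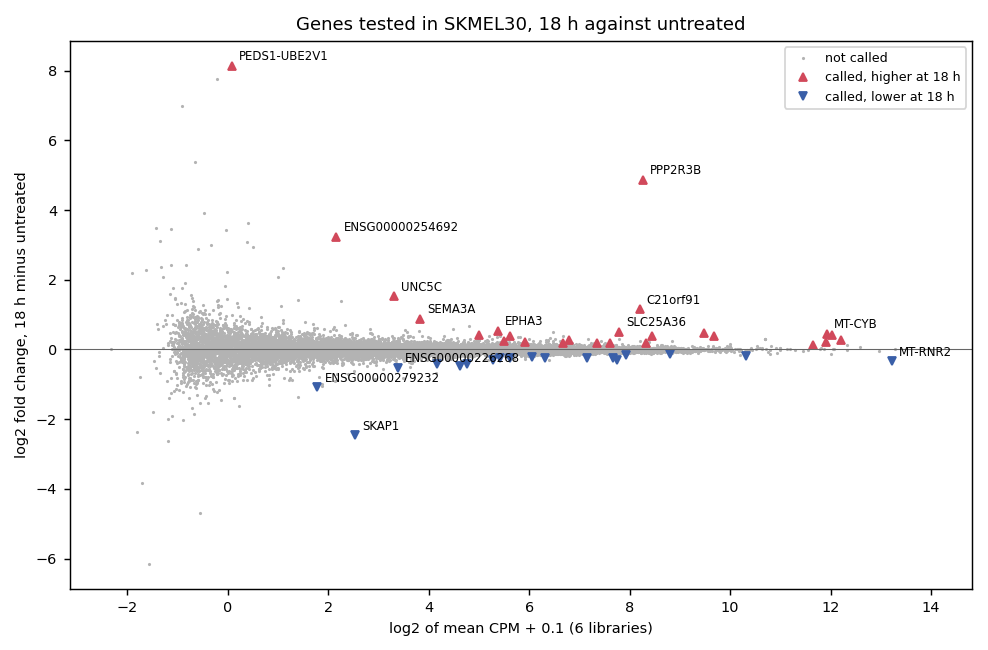
Log2 fold change at 18 h against untreated (y axis) by log2 mean CPM plus 0.1 over the 6 libraries (x axis) for 15025 genes tested in SKMEL30. Upward triangles mark 25 genes called higher and downward triangles the 18 called lower, with PPP2R3B at 4.88 far above other genes of its level and most other calls within 0.5 of 0.

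PPP2R3B itself, annotated at chrX:333933-386907 (GRCh38.p14, as are all positions below) in the pseudoautosomal region, was measured at 21.6, 19.1 and 19.8 CPM in the untreated libraries and 594, 595 and 591 CPM at 18 h. The groups did not overlap, and the level rose 29.4-fold (log2 fold change 4.88 ± 0.045 SE, adjusted p = 2.21e-17). The counts do not separate the vector's copy from the endogenous gene. Of 26 PP2A genes tested, PPP2R3B was the only one called. The scaffold gene PPP2R1A was at 181, 179 and 175 CPM untreated and 168, 173 and 164 CPM at 18 h, a log2 difference of -0.083 that did not pass (adjusted p = 0.425). The striatin-family regulatory subunit STRN4 differed by -0.12 (adjusted p = 0.5), and both were lower at 18 h without overlap between the groups. The median over the 26 genes was -0.010. The genes tested on each side of PPP2R3B were not called. GTPBP6 differed by -0.022 (adjusted p = 0.947), PLCXD1 by -0.11 (adjusted p = 0.587), IL3RA, which is barely expressed, by -0.80 (adjusted p = 0.643) and CSF2RA by 0.21 (adjusted p = 0.0663).

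C21orf91, a little-characterised gene at chr21:17788974-17819356, had the second smallest p of all. It was at 183, 179.6 and 184 CPM in the untreated libraries and at 406, 390.2 and 418 CPM after 18 h. The groups did not overlap, and the fitted rise was 2.22-fold (log2 fold change 1.15 ± 0.029 SE, adjusted p = 1.14e-11). At 6 h the gene was already at 393, 402 and 389.6 CPM, and the 18 h and 6 h levels differed by 0.035 on the log2 scale (adjusted p = 0.964). The tested genes on either side, BTG3, its antisense BTG3-AS1, PPIAP22 and NCAM2, had log2 fold changes from -0.19 to -0.032 and none was called.

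RefSeq promoter windows, covering 250 bases before and 50 after the start site on GRCh38.p14, were at hand for 16 of the 44 called genes. They were searched on both strands for CACGTG (the E-box), CATGTG (an E-box form bound by MITF), TGACGTCA (the cAMP response element), TGANTCA (AP-1) and CATTCC (TEAD). Windows are shown for C21orf91, which had the second smallest p, for SLC25A36, which held both the E-box and the cAMP response element, and for THBS1, which fell and held CATTCC. Capitals mark these matches.
C21orf91 (chr21:17819307-17819606, minus strand): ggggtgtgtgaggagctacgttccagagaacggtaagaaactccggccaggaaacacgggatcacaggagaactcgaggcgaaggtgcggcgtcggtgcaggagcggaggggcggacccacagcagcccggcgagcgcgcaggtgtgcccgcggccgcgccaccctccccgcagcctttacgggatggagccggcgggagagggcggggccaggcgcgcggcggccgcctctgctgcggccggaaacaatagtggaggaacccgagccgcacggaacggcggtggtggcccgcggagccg
SLC25A36 (chr3:140941586-140941885, plus strand): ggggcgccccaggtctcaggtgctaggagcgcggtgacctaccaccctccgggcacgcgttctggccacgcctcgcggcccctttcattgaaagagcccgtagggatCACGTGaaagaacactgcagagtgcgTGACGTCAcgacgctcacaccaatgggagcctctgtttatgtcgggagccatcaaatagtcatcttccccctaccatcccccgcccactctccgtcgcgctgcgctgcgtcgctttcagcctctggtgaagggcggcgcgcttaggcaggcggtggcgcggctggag
THBS1 (chr15:39580829-39581128, plus strand): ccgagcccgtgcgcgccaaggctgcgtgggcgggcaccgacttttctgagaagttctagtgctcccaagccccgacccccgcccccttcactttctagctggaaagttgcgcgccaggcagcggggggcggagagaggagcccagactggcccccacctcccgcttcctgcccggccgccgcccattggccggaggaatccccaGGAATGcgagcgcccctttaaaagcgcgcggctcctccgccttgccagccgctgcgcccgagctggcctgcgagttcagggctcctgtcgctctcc
The C21orf91 window held none of these motifs. Among the 16 windows, CACGTG and TGACGTCA were found in 1 (SLC25A36), TGANTCA in 2 (SLC7A8 and MT2A), CATTCC in 2 (THBS1 and MYH10) and CATGTG in none. Over the 34961 windows in the table the shares were 7.27% for CACGTG, 11.1% for CATGTG, 1.85% for TGACGTCA, 7.68% for TGANTCA and 14% for CATTCC. Over the 10708 windows of genes tested in SKMEL30 they were 10.3%, 6.76%, 3.29%, 4.47% and 10.9% in the same order. A match is a stretch of letters in the window and not a measured site.

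Genes of axon guidance, the ligands and receptors that steer growing neurites and migrating cells, gave 3 of the 26 rises. UNC5C, a repulsive netrin receptor at chr4:95162504-95548973, was at 5.05, 5.31 and 4.76 CPM untreated and 13.1, 13.8 and 16.8 CPM at 18 h, a 2.89-fold rise (log2 1.53 ± 0.11 SE, adjusted p = 2.17e-06). SEMA3A, a secreted semaphorin that repels axons through neuropilin and plexin receptors (chr7:83955777-84492725), was at 11.8, 9.56 and 8.43 CPM and then 20.5, 16.0 and 18.5 CPM. Its lowest induced library was above its highest untreated one, although the untreated values were spread widely, and it rose 1.85-fold (log2 0.89 ± 0.12 SE, adjusted p = 0.00285). EPHA3, a receptor tyrosine kinase for ephrin-A ligands (chr3:89107621-89482134), was at 34.0, 35.5 and 31.8 CPM untreated and 48.7, 49.4 and 49.8 CPM at 18 h (log2 0.54 ± 0.046 SE, adjusted p = 1.6e-05). All 3 calls remained without any single library. Of the 41 axon guidance genes tested, 28 were above 0 and 13 below, with a median of 0.029. The 3 calls among these 41 stood beside 0.173% of all genes tested that were called higher. Of the 11 semaphorins 10 were above 0, but only SEMA3A passed. The receptor NRP2 had 368 ± 2.31 CPM (SD, n = 3) untreated and a log2 difference of 0.074 (adjusted p = 0.315), and SEMA4C a difference of -0.16 (adjusted p = 0.193).

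SKAP1, an adaptor protein best known from T-cell receptor signalling (chr17:48133442-48445061), showed the largest fall among the called genes. It was at 9.45, 11.1 and 8.43 CPM in the untreated libraries, 4.29, 4.28 and 4.06 CPM at 6 h and 1.62, 1.54 and 2.06 CPM at 18 h. The 3 groups did not overlap, and the 18 h level was 0.181 of the untreated one (log2 -2.46 ± 0.15 SE, adjusted p = 7e-07). Neighbours of SKAP1 were not called: SNX11 differed by -0.015, CBX1 by 0.019, HOXB2 by -0.21 (adjusted p = 0.408) and HOXB-AS1 by -0.061. The other calls with a log2 change of 1 or more were weak in level or identity. ENSG00000254692, for which the tables used here gave no symbol, had counts of 0, 34 and 11 untreated and 116, 147 and 155 at 18 h. ENSG00000279232, likewise unnamed, had 4.35, 3.78 and 5.50 CPM and then 1.78, 2.06 and 2.54 CPM, and its counts were estimated from reads shared with other genes in all 6 libraries. Both calls were lost when single libraries were left out, with adjusted p up to 0.204 for the first (without any 18 h library or untreated library 1 or 3) and 0.19 for the second (without any of the same 5).

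PEDS1-UBE2V1, a readthrough transcript joining PEDS1 to the ubiquitin-conjugating enzyme variant UBE2V1 on chromosome 20, was the only gene with no count in the 3 untreated libraries and at least 10 in each 18 h library. It had 71, 14 and 21 counts at 18 h and none in the 3 libraries at 6 h. Against a floor of 3 counts over the untreated group, its pooled level was at least 35.4-fold higher. Its exons are those of its neighbours, and reads are assigned to it by estimation. PEDS1 itself had 59.5 ± 2.06 CPM (SD, n = 3) untreated and 56.3 ± 2.26 CPM at 18 h, and UBE2V1 had 188 ± 1.79 and 187 ± 3.36 CPM. Neither passed (adjusted p = 0.611 and 0.974). The readthrough call was lost without any 1 untreated library or the third library at 18 h (adjusted p up to 0.138).

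**Figure D2:**
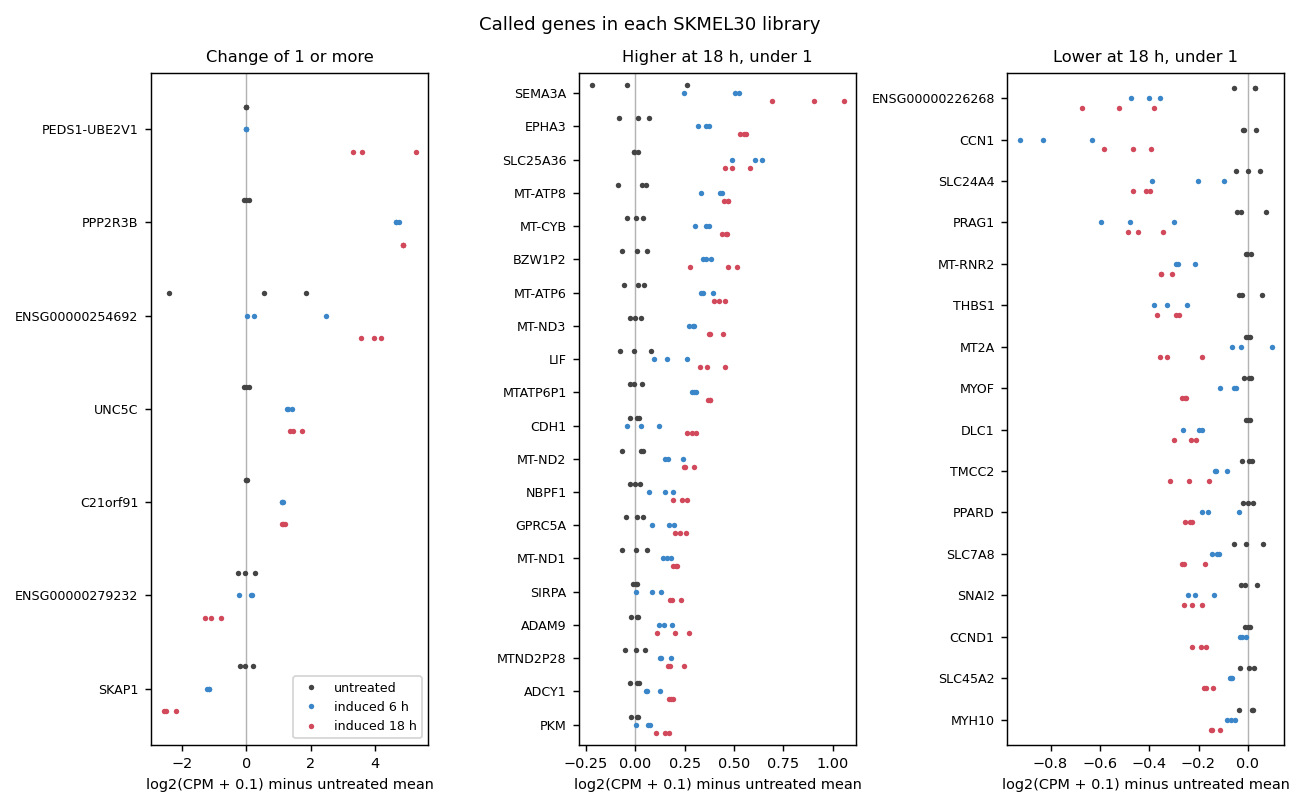
Level of 43 called genes in each SKMEL30 library as log2 CPM plus 0.1 minus the mean of the 3 untreated libraries (x axis), for untreated, 6 h and 18 h libraries, 1 dot per library. The left panel holds the 7 genes with a change of 1 or more, the middle panel 20 smaller rises and the right panel 16 smaller falls. In every row the 18 h dots lie clear of the untreated ones, while the 6 h dots of genes such as CCND1 and MYOF lie nearer the untreated ones and those of C21orf91 near the 18 h ones.

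The mitochondrial genome gave 7 of the 44 calls. Its transcripts encode subunits of the respiratory chain and of ATP synthase, and both ribosomal RNAs of the organelle. MT-CYB, the cytochrome b subunit of complex III, was at 3289.6, 3368 and 3185 CPM untreated and 4517, 4451 and 4529 CPM at 18 h (log2 0.46 ± 0.025 SE, adjusted p = 2.67e-07). MT-ATP6, an ATP synthase subunit, was at 3594, 3671 and 3427 CPM and then 4874, 4700.3 and 4788 CPM (log2 0.43 ± 0.027 SE). MT-ATP8, the other ATP synthase subunit, was at 568, 618 and 628 CPM and then 835, 826 and 835 CPM (log2 0.46 ± 0.038 SE). These were the strongest rises of the organelle, by 1.37-fold, 1.34-fold and 1.38-fold without overlap. Complex I genes rose less evenly, with MT-ND3 at 0.40, MT-ND2 at 0.26 and MT-ND1 at 0.20 on the log2 scale, and 4 of the 7 complex I genes did not pass.

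No complex IV gene was called. MT-CO2 differed by 0.11 (adjusted p = 0.134) and MT-CO3 by 0.075 (adjusted p = 0.25). The large ribosomal RNA MT-RNR2 fell, from 10522, 10574 and 10671 CPM to 8299, 8305 and 8552 CPM (log2 -0.34 ± 0.021 SE, adjusted p = 7.01e-07). MT-RNR1 overlapped widely between the groups, with 956, 640.4 and 740.03 CPM untreated and 967, 538 and 979 CPM at 18 h. The libraries were made with a kit for messenger RNA, and the part of these ribosomal RNAs that it captured was not measured. Of the 15 mitochondrial transcripts tested 6 rose and 1 fell, where 0.293% of all genes tested were called in either direction. Their median was 0.089. All 7 calls remained without any single library. All 7 were lost when the 18 libraries of both lines shared a single fit, with MT-CYB lowest at an adjusted p of 0.404. The mitochondrial messenger share of all counts was 5.66% to 6.05% untreated and 6.26% to 6.37% at 18 h, and the ribosomal share 1.13% to 1.15% and then 0.884% to 0.949%. MT-ATP6, MT-RNR2, MT-ND1 and MT-ND2 had estimated, not whole, counts in all 6 libraries, as happens where reads are shared with other genes such as nuclear copies. The nuclear copies MTATP6P1 (log2 0.37) and MTND2P28 (log2 0.20) were called with them and are uncertain for the same reason, and the call of MTND2P28 was lost without any 1 library other than untreated library 3 (adjusted p up to 0.173).

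**Figure D3:**
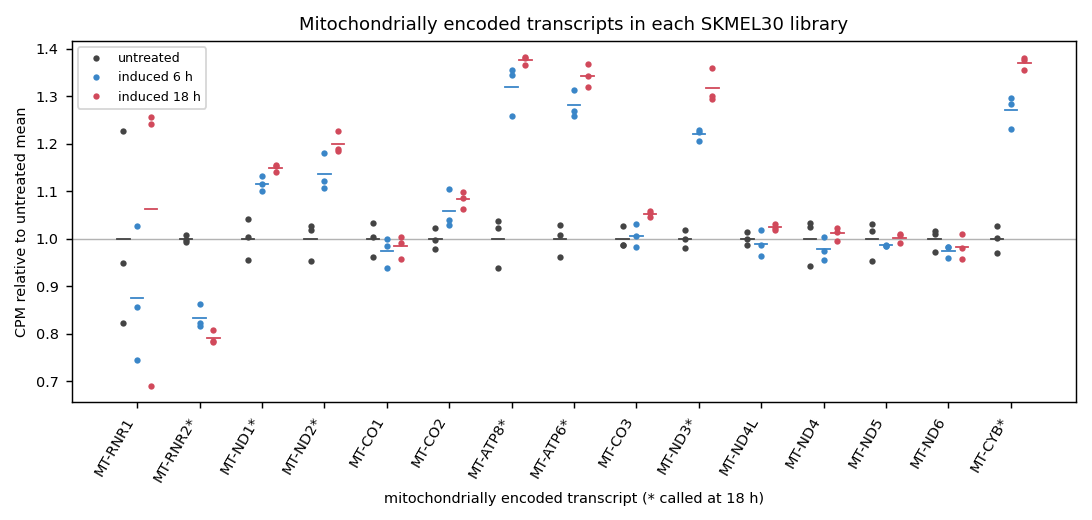
CPM of the 15 mitochondrially encoded transcripts in each SKMEL30 library divided by the untreated mean (y axis), in genome order (x axis), with short bars for group means of 3 libraries and asterisks for genes called at 18 h. At 18 h MT-CYB, MT-ATP6, MT-ATP8 and MT-ND3 lie well above 1 and MT-RNR2 below it, at 0.792 in the fit, while MT-CO1, MT-ND4, MT-ND5 and MT-ND6 lie near 1.

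Nuclear genes outside these groups also changed. SLC25A36, a mitochondrial carrier of pyrimidine nucleotides, was at 182, 181 and 184 CPM and then 256, 250.3 and 273 CPM (log2 0.51 ± 0.04 SE, adjusted p = 6.37e-06). It was the only call among 36 mitochondrial carriers, of which 25 were below 0. The next carriers by p, SLC25A24 and SLC25A40, had log2 differences of -0.11 and -0.15 (adjusted p = 0.207 and 0.322). PKM, the pyruvate kinase of glycolysis, rose by 0.14 and was the only call among 22 hypoxia and glycolysis genes. SLC2A1, the main glucose transporter, and the hexokinase HK1 had differences of -0.14 and -0.085 that did not pass. BZW1P2, a processed pseudogene of BZW1 whose counts were estimated from shared reads in all 6 libraries, had a rise of 0.43 that is uncertain.

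Targets of the co-activator YAP and its TEAD partners, which respond to cell shape and density, were mostly lower. Of 20 tested 15 were below 0, 4 fell and none rose, where 0.12% of all genes tested were called lower. The median was -0.15, and -0.080 without the second 18 h library. CCN1, a secreted matrix protein, was at 29.1, 28.0 and 28.1 CPM untreated and 20.5, 18.9 and 21.6 CPM at 18 h (log2 -0.48 ± 0.072 SE, adjusted p = 0.00811). THBS1, the matrix glycoprotein thrombospondin, was at 249, 233 and 235 CPM and then 197, 185 and 195 CPM (log2 -0.31 ± 0.038 SE, adjusted p = 0.00103). MYOF, a membrane repair protein, was at 224, 223 and 219.8 CPM and then 186, 187 and 185 CPM (log2 -0.26 ± 0.027 SE, adjusted p = 0.000186). The fourth was DLC1, a GTPase-activating protein, at 155, 153 and 154 CPM and then 131, 125 and 133 CPM (log2 -0.25 ± 0.033 SE, adjusted p = 0.00272). Members of this list, DLC1 and MYOF among them, were chosen with earlier results of these data known. The 4 calls are therefore not independent evidence for the pathway. CCN1, the lowest of the 4 in level, lost its call without untreated library 1 or the first or second 18 h library (adjusted p up to 0.0628). AMOTL2, an angiomotin that binds YAP, had a log2 difference of -0.26 at 18 h (adjusted p = 0.099), and the cell-surface nucleotidase NT5E one of -0.12 (adjusted p = 0.303). CCN2, the best-known target of the pathway, had 15.4, 16.2 and 15.6 CPM untreated and 16.3, 12.0 and 14.3 CPM at 18 h, and the groups overlapped.

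The invasive melanoma list holds 45 genes, of which 32 were tested, 24 were below 0 and 3 fell, with a median of -0.12. Of all genes tested 0.12% were called lower. The median was -0.048 without the second 18 h library and -0.081 without the second untreated one. Those 3, CCN1, THBS1 and MYOF, are the same that stand in the YAP and TEAD list. Another member, the integrin chain ITGA3, had a log2 difference of 0.11 in the other direction (adjusted p = 0.285). Of the actin regulators and SRF targets 24 were tested and only DLC1, which also stands in the list above, was called. Of the 12 SRF targets among them 11 were below 0, with a median of -0.090. ACTG1, a cytoplasmic actin, was at 4311, 4252 and 4289.8 CPM untreated and 3918, 3982 and 3916 CPM at 18 h, lower without overlap but not called (log2 -0.12, adjusted p = 0.0584). ACTB, the other cytoplasmic actin, had a difference of -0.13 (adjusted p = 0.185). MYH10, a non-muscle myosin heavy chain outside these lists, fell by 0.14 on the log2 scale, and PRAG1, a pseudokinase, by 0.43. Both calls were lost without single libraries, with adjusted p up to 0.22 for MYH10 (without any 1 of the 6) and 0.118 for PRAG1 (without any 1 other than the third 18 h library).

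The proliferative melanoma list, with 52 genes tested, was divided, with 23 above 0, 29 below and a median of -0.0072. It held 4 calls, where 0.293% of all genes tested were called, and 3 of them were higher, C21orf91, CDH1 and SIRPA. CDH1, the adhesion molecule E-cadherin that ties melanocytes to keratinocytes, was at 100.5, 97.3 and 99.9 CPM untreated and 119, 123 and 121 CPM at 18 h (log2 0.29 ± 0.04 SE, adjusted p = 0.00341). The level was alike in the 3 libraries at 18 h, including the one with keratin counts, and the call remained without any of them. SIRPA, a receptor for CD47, rose by 0.20 (adjusted p = 0.00939), from estimated counts, and lost its call without untreated library 1 or 2 or the third library at 18 h (adjusted p up to 0.0683). The one that fell, SLC45A2, is a melanosomal transporter needed for pigment, and was at 253, 263 and 259 CPM and then 229.6, 228 and 234 CPM (log2 -0.16 ± 0.025 SE, adjusted p = 0.00912). The pigment list gave 1 more fall among 23 tested, the sodium, calcium and potassium exchanger SLC24A4, at 20.4, 19.8 and 21.2 CPM and then 14.8, 15.3 and 15.5 CPM (log2 -0.43, adjusted p = 0.0224). SLC45A2 and SLC24A4 were the 2 falls in the pigment list, where 0.12% of all genes tested were called lower. Without single libraries the adjusted p reached 0.0796 for SLC45A2 (lost without untreated library 2 or the first or second 18 h library) and 0.149 for SLC24A4 (lost without any 1 of the 6). Pigment enzymes were not called and did not share a direction. TYRP1 had 1272, 1189 and 1248 CPM untreated and 1158, 1065 and 1109.9 CPM at 18 h (log2 -0.15, adjusted p = 0.137), and DCT had 583, 582 and 578 and 622, 625 and 620.1 CPM (log2 0.10, adjusted p = 0.204).

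MITF, the master transcription factor of the melanocyte lineage, had 761, 759 and 787 CPM untreated and 735, 736 and 762 CPM at 18 h. The groups overlapped, and the log2 difference of -0.046 ± 0.028 SE did not pass (adjusted p = 0.677). Of all genes tested 0.293% were called. Among 20 melanoma transcription factors 16 were below 0, with a median of -0.053, and 1 was called. This was SNAI2, a repressor of epithelial genes, at 70.0, 70.8 and 73.3 CPM and then 62.7, 59.6 and 61.0 CPM (log2 -0.22 ± 0.04 SE, adjusted p = 0.0344), and it was lost without any 1 of the 6 libraries (adjusted p up to 0.183). MEF2C differed by -0.21 (adjusted p = 0.0538) and the neural factor POU3F2, also called BRN2, by -0.21 (adjusted p = 0.164). Both were lower in every 18 h library than in any untreated one.

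None of the cell cycle genes of DNA replication was called. CDC6, the substrate to which PR70 is known to bring PP2A, had 191, 182 and 191 CPM untreated and 183, 171 and 184 CPM at 18 h, with overlap between the groups (log2 -0.07 ± 0.033 SE, adjusted p = 0.557). The origin licensing and S phase list was nevertheless mostly on one side of 0, with 28 of 32 genes below it, and a median of -0.092. It held 14 genes at an unadjusted p under 0.05, against 9.14% of all genes tested, and 15 genes whose 18 h libraries were all below the untreated ones, against 8.19%. The 9 genes of the loader role, CDC6 among them, were divided, with 4 above 0, 5 below and a median of -0.014. All 7 genes of the synthesis role and all 6 of the driver role were below 0. All 10 genes of the helicase role were below 0, for example MCM3 with 350.3, 340.04 and 352 CPM and then 324, 324 and 317 CPM (log2 -0.11, adjusted p = 0.137) and MCM6 with 253, 257 and 257 CPM and then 241, 234 and 234 CPM (log2 -0.11, adjusted p = 0.139). Mitosis genes lay the same way, 18 of 21 below 0 with a median of -0.071 and none called. That median was -0.042 without the first 18 h library, -0.11 without the first untreated library and -0.038 without the third. CCNA2, a cyclin of S phase and mitosis, had a difference of -0.14 (adjusted p = 0.161) and its kinase CDK1 one of -0.13 (adjusted p = 0.185). Genes of the cell cycle are expressed together, so the members of these lists are not independent of each other.

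CCND1, the cyclin that drives G1 and a gene amplified or highly expressed in many melanomas, did fall. It was at 1349, 1362 and 1370.1 CPM untreated, 1332, 1352 and 1336 CPM at 6 h and 1162, 1194 and 1208 CPM at 18 h (log2 -0.20 ± 0.024 SE at 18 h, adjusted p = 0.000936). The 18 h libraries were all below the others, by a modest amount that remained called without any single library. The call was lost with the 18 libraries of both lines in a single fit (adjusted p = 0.252). CCND1 counts were estimated, not whole, in all 6 libraries compared. Of the 12 G1 control genes it was the only call, where 0.293% of all genes tested were called. The inhibitor CDKN2B had 28.6, 28.2 and 29.8 CPM and then 34.4, 32.7 and 36.0 CPM, higher without overlap but not called (log2 0.26, adjusted p = 0.079), and CDKN2C had a difference of -0.18 (adjusted p = 0.439).

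Among 28 genes of ERK output and feedback CCND1 fell, LIF rose and 21 were below 0, with a median of -0.038. Of all 15026 genes tested 0.293% were called and 7471 were below 0. LIF, a secreted cytokine of the IL6 family that signals through gp130, was at 40.5, 42.6 and 45.1 CPM untreated and 53.6, 54.9 and 58.5 CPM at 18 h, a rise of 0.38 ± 0.055 SE (adjusted p = 0.00459) that remained without any single library. Of the 15 genes of the IL6-type cytokine list LIF was the only call. Its signalling partner JAK1 and feedback gene SOCS2 had differences of -0.05 and -0.13 that did not pass. In the ERK list FOSL1, an AP-1 component, had a difference of -0.20 (adjusted p = 0.187), and ETV5 one of -0.079 (adjusted p = 0.382).

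Of 13 genes tested in the growth factor receptor list GPRC5A was the only call, at 0.23 (adjusted p = 0.0372). GPRC5A is an orphan receptor induced by retinoic acid and not itself a known growth factor receptor. ERBB3, a receptor for neuregulins, had a difference of 0.12 (adjusted p = 0.218). No gene was called in the WNT pathway (23 tested), cholesterol and lipid synthesis (17), cytosolic chaperones (19), endoplasmic reticulum folding (26), ATF4 targets (25) or p53 targets (20). In the WNT list the inhibitor DKK1 had 14.5, 11.8 and 15.0 CPM and then 11.2, 9.71 and 10.8 CPM (log2 -0.37, adjusted p = 0.199), and NKD1 a difference of -0.31 (adjusted p = 0.22). Of the sterol genes 14 of 17 were below 0, and FDPS, with the smallest p, had a difference of -0.09. The chaperone HSP90AA1 had a difference of 0.092, the folding co-chaperone DNAJB9 of 0.18, the stress factor ATF4 of 0.081 and the p53 target GADD45A of -0.23, with adjusted p from 0.338 to 0.472.

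The remaining calls stood in no list. ADAM9, a membrane metalloprotease, rose by 0.20 and ADCY1, an adenylyl cyclase, by 0.18. MT2A, a metallothionein, fell by 0.29, PPARD, a nuclear receptor for fatty acids, by 0.24, and SLC7A8, an amino acid transporter, by 0.24 on the log2 scale. TMCC2 fell by 0.24. NBPF1 (log2 0.23) and the unnamed ENSG00000226268 (log2 -0.52) had estimated counts in all 6 libraries and are uncertain. Each of these 8 calls was lost when some single library was left out, with adjusted p up to 0.235, and the calls of PKM and GPRC5A given above were lost in the same way, with adjusted p up to 0.122 and 0.205. Any 1 of the 6 libraries sufficed for ADCY1, PPARD, SLC7A8, NBPF1 and GPRC5A, any 1 but the second 18 h library for ADAM9, MT2A and TMCC2, any 1 but the third 18 h library for ENSG00000226268, and untreated library 1 or 2 or 18 h library 2 or 3 for PKM. The last gene inside the threshold, NBPF1, had an adjusted p of 0.0482, and the first outside, TRIM2, one of 0.0538 with a difference of 0.18.

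**Figure D4:**
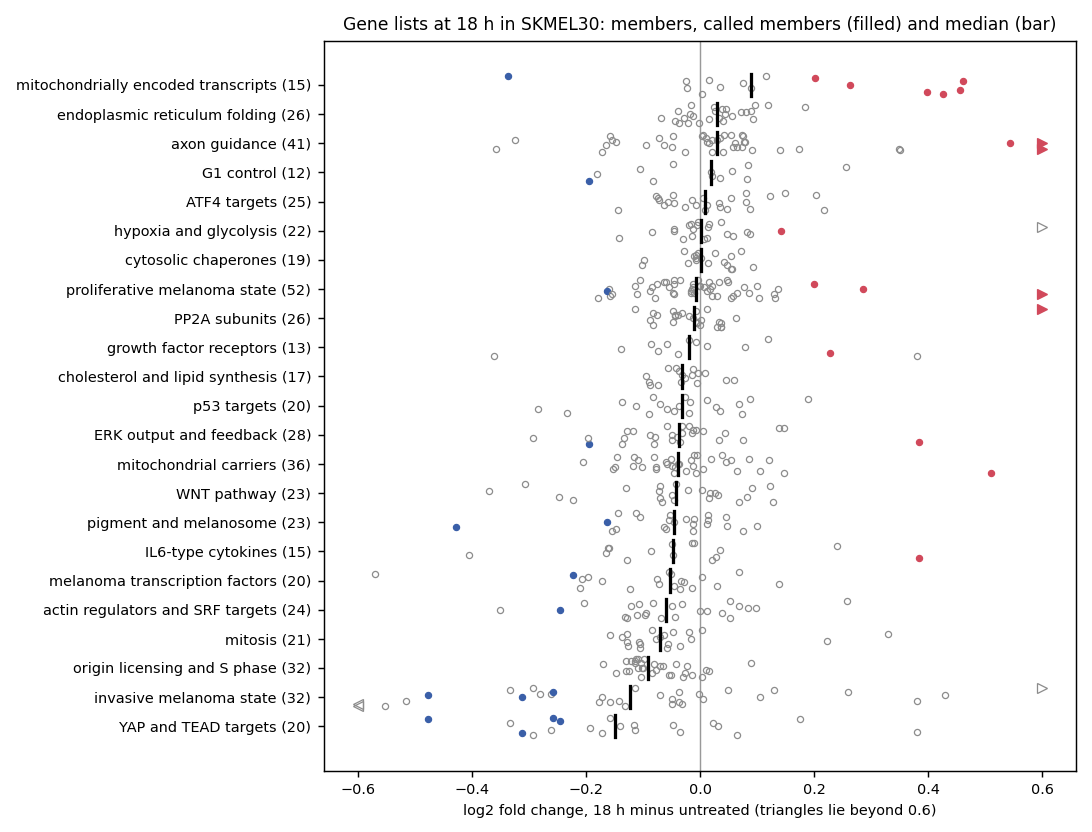
Log2 fold change at 18 h against untreated (x axis) of every tested member of 23 gene lists (y axis, number tested in brackets), with called members filled, medians as bars and triangles for 8 values beyond 0.6. The YAP and TEAD, invasive and replication lists have the lowest medians and the mitochondrially encoded transcripts the highest.

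The 18 h libraries were next compared with the 6 h libraries to see what was added after the early time point. Only 3 genes were called, 0.02% of those tested, and 835 had an unadjusted p under 0.05. SKAP1 was lower by 1.26 on the log2 scale (adjusted p = 0.0287), CCND1 by 0.17 (adjusted p = 0.0287) and MYOF by 0.19 (adjusted p = 0.0381). CCND1 and MYOF did not pass against untreated cells at 6 h, with log2 differences of -0.022 and -0.072 (adjusted p = 0.909 and 0.666). SKAP1 was already down at 6 h by 1.20. CDH1, next in order with RGPD6, differed between the time points by 0.25 (adjusted p = 0.0526). None of the 3 calls remained when any 1 of the 18 h libraries or the third 6 h library was left out, which left between 0 and 2 called genes. Without the first 6 h library 5 genes were called, 2 of the 3 among them, and without the second 3 were, with 1 of the 3. Against untreated cells, 20 of the 44 genes had also been called at 6 h, with the same controls, among them C21orf91, UNC5C, EPHA3, SLC25A36, THBS1 and 6 of the mitochondrial messengers. CCN1 was lower at 6 h than at 18 h, at 16.0, 18.3 and 14.9 CPM, and the difference between the times did not pass (adjusted p = 0.551).

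The same comparison in SKMEL2, with its own libraries and controls, called 2 genes, 0.0124% of 16120 tested, and 750 had an unadjusted p under 0.05. These were PPP2R3B (log2 4.52 ± 0.17 SE, adjusted p = 6.39e-08) and C21orf91 (log2 1.29 ± 0.10 SE, adjusted p = 0.00017). Replicates varied more in SKMEL2, with a common biological coefficient of variation of 8.36%, than in SKMEL30, with 4.11%. Of the 44 SKMEL30 calls 42 were tested in SKMEL2, and 29 of them (69%) had the same sign, against 49.7% of the 14079 genes tested in both lines. In SKMEL2, 16 of the 42 had an unadjusted p under 0.05, 15 of them with the sign seen in SKMEL30, where 4.72% of all genes did in either direction. SLC25A36 was at 0.60 ± 0.086 SE in SKMEL2 (adjusted p = 0.0555), EPHA3 at 0.46, CCN1 at -0.55, MYOF at -0.57 and THBS1 at -0.38, each with the sign it had in SKMEL30. None of these passed in SKMEL2, with adjusted p of 0.859 for EPHA3, 0.987 for CCN1, 0.944 for MYOF and 0.987 for THBS1. The sign was opposite for 13 of the 42, among them SLC45A2 at 0.14 and TMCC2 at 0.23 (adjusted p = 0.987 for each). SKAP1 and PEDS1-UBE2V1 were not tested in SKMEL2.

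The difference between the lines was tested itself, and 1 gene of 17133 passed, 0.00584%, with 884 at an unadjusted p under 0.05. LIF was -0.40 ± 0.091 SE in SKMEL2, against 0.38 in SKMEL30, a difference of 0.78 (adjusted p = 0.00495). The change of LIF within SKMEL2 did not itself pass (adjusted p = 0.641). ANXA1, which binds membranes in response to calcium, was next with a difference of 0.41 (adjusted p = 0.0891), followed by the neural factor NHLH1, at very low counts in both lines, with -4.11 (adjusted p = 0.106). The 6 mitochondrial messengers called higher in SKMEL30 were below 0 in SKMEL2, with MT-CYB at -0.14 ± 0.14 SE, MT-ATP6 at -0.10 ± 0.16 SE and MT-ND3 at -0.10 ± 0.13 SE. Their differences between the lines did not pass over all genes (adjusted p = 0.732, 0.895 and 0.895). Their sign in SKMEL2 rested on untreated library 3, as MT-CYB was at 5304, 5014 and 7499 CPM in the untreated libraries and 5420, 5099 and 5625 CPM at 18 h. Without that library all 6 were above 0, with MT-CYB at 0.061 ± 0.10 SE, MT-ATP6 at 0.13 ± 0.13 SE and MT-ND3 at 0.076 ± 0.099 SE, and their differences between the lines did not pass either (adjusted p = 0.997 for each of these 3). MT-RNR2 was below 0 in both lines, at -0.22 ± 0.14 SE in SKMEL2 and at -0.061 ± 0.12 SE without that library. UNC5C and SEMA3A were above 0 in both, at 0.37 ± 0.31 SE and 0.25 ± 0.078 SE in SKMEL2, and their differences between the lines, 1.15 and 0.63, did not pass (adjusted p = 0.732 and 0.732). Without SKMEL2 untreated library 3 UNC5C was at 0.087 ± 0.29 SE there.

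**Figure D5:**
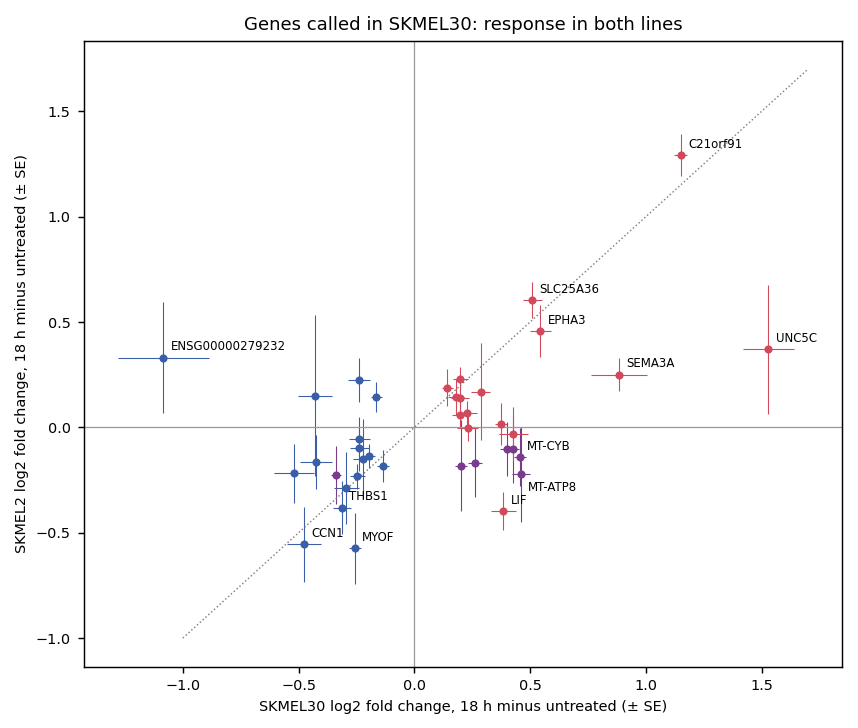
Log2 fold change at 18 h against untreated with its SE in SKMEL30 (x axis) and SKMEL2 (y axis) for 39 genes called in SKMEL30, with red for rises, blue for falls, purple for mitochondrial transcripts and a dotted line where both are equal. PPP2R3B and ENSG00000254692 are off the scale and left out. C21orf91, SLC25A36 and EPHA3 lie near the line, while LIF lies below 0 in SKMEL2, as do the mitochondrial messengers, whose values turn above 0 there without untreated library 3.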

How the data were processed

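RNA from SKMEL30 and SKMEL2 cells was prepared with a KAPA mRNA kit and sequenced as paired ends, and the deposited table holds the expected counts per gene that the authors estimated with RSEM from alignments to the GRCh38 human transcriptome (Ensembl annotation). The submitters' processing notes name Trimmomatic 0.36, cutadapt 1.5, STAR 2.2.2a, SAMtools 1.8 and RSEM 1.3.0, and the study's methods give other cutadapt and STAR versions. Counts were rounded, although 12.3% of values were not whole (tolerance 1e-06) because reads shared between genes are divided by estimation. The labels give the late time point as 18 h and the study's text gives another hour, and the labels were followed.

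All 9 SKMEL30 libraries in 3 groups were fitted together in edgeR 4.0.16 (R 4.3.3), with filterByExpr, TMM factors and the quasi-likelihood test, and p-values were adjusted by Benjamini-Hochberg over all genes tested, with a threshold of 0.05. SKMEL2 was fitted alike, and the difference between lines in a single fit of 18 libraries. SE is the log2 fold change divided by the square root of F. DESeq2 1.42.0 and further settings served as alternatives. The scripts were tested on simulated counts. Named genes were PPP2R3B, C21orf91, MITF and CDC6, the 14 higher and 14 lower called genes with the smallest p, called members of each list with up to 2 further members of smallest p, the 2 tested genes on either side of PPP2R3B, C21orf91 and the largest other changes, the 3 genes of smallest p in the other comparisons, and genes at 0 counts in 1 group and at least 10 in each library of the other. Other called genes, CCN2, UBE2V1, MT-RNR1, TRIM2 and further members of the mitochondrial list were picked with their values in view. A called gene and the list that holds it are not reported here. The members and lists were chosen with earlier results of these data known. Symbols came from a gene name table for 55604 genes, and positions and promoters from RefSeq (GRCh38.p14). The replicate numbers were not used to pair the libraries in the main fit. Precision is limited by 3 libraries a group. Figures were drawn with matplotlib.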

Additional observations from a re-analysis of the deposited data

Results flagged for a closer look

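LIF was flagged because its response at 18 h differed between the lines in a test of the difference itself. The log2 fold change in SKMEL30 exceeded that in SKMEL2 by 0.78 (adjusted p = 0.00495 over 17133 genes, edgeR quasi-likelihood test). Within SKMEL2 alone the change of -0.40 did not pass (adjusted p = 0.641, same test). In the fit of all 18 libraries the level was 42.1, 44.2 and 46.8 CPM in untreated SKMEL30 libraries and 55.7, 57.0 and 60.8 CPM at 18 h, and 13.1, 15.6 and 15.0 CPM in untreated SKMEL2 libraries and 11.4, 10.9 and 10.9 CPM at 18 h. The 3 libraries of each induced group lay on opposite sides of their own untreated groups. The call remained when any single library of the 4 groups was left out.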

How the results depend on the processing

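No called gene changed direction under any alternative. Of the 44 calls, 9 were lost under no alternative that gave them an adjusted p. Among them were PPP2R3B, C21orf91, SLC25A36, UNC5C, EPHA3, SEMA3A, LIF and SKAP1. DESeq2 with its filter on mean count gave no adjusted p for UNC5C, EPHA3, SEMA3A, LIF and SKAP1. For 18 h against untreated in SKMEL30 the count was 71 with DESeq2, with 27 of the 44 among them. Its filter on mean count gave 17 of the rest no adjusted p, and 4.33% of genes had an unadjusted p under 0.05 against 9.14%. The count was 359 with no filter on low counts and 9 with all 18 libraries in a single fit. That single fit lost 35 of the 44, among them the 7 mitochondrial calls, CCND1, THBS1, MYOF, DLC1 and CDH1. DESeq2 without that filter, an alternative chosen after seeing the data, called 64, with 38 of the 44. Leaving out single libraries left 25 to 30, with 25 without untreated library 1, 29 without untreated library 2 or 3 and 27 without the third 18 h library. With the replicate block the counts were 37 (34 of the 44), 16 for 18 h against 6 h, 7 in SKMEL2 and 1 for the difference between lines. Correlations between same-numbered SKMEL30 libraries ran from -0.022 to 0.12 over 9 pairs, with 1 above 0.1. The pairs of 6 h and 18 h libraries gave 0.072, 0.12 and 0.082. Whether libraries of the same number shared a culture or a batch was not tested.

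For 18 h against 6 h the count was 12 with DESeq2, 10 without its filter, 5 where every library had to hold at least 10 counts, 197 with no filter on low counts, 0 with only the 6 libraries compared (768 at an unadjusted p under 0.05) and 0 to 5 without single libraries. In SKMEL2 it was 11 with DESeq2 with or without its filter, 168 with no filter on low counts, 9 with only the 6 libraries compared and 2 without any single library. For the difference between lines it was 3 with DESeq2 with or without its filter, 216 with no filter on low counts and 1 to 2 without single libraries, the 2 being without SKMEL2 untreated library 3. The cause of these differences was not tested. Of 24 list medians, 16 kept their sign in every alternative.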
